A study of Mus musculus with 6 samples.

Results

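Long noncoding RNAs expressed in the injured mouse liver were compared between mice whose hepatocytes lack the transcription factor IRF8 (interferon regulatory factor 8) and wild-type mice. The genes were chosen by biotype and by their summed raw counts: the set held the genes of the count table with the biotype lincRNA (long intergenic noncoding RNA), lncRNA or antisense whose raw counts over the 6 libraries summed to at least 300 reads. It came to 83 genes, 50 lincRNA and 33 antisense and none with the biotype lncRNA, of 8385 genes of these biotypes and 54532 genes in all. Of the 8385, 2583 had a read. The sum that chose the genes comes from the same libraries and takes no account of group, and all 83 passed the low-count filter of the test. Just inside the limit were AC165953.2 with 304 reads, 9430037G07Rik with 303 and 2310001H17Rik with 301, and just outside were 4732419C18Rik with 295, AC127341.3 with 292 and BC002059 with 290.

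RNA came from the ischemic liver lobe after 1 h of warm ischemia, in which the blood supply is clamped, and 12 h of reperfusion. The IRF8-cKO group (IRF8-cKO-71, then IRF8-cKO-88, then IRF8-cKO-106) carried a hepatocyte-specific IRF8 deficiency on the strain labelled C57bl/6, and the WT group (WT-14, WT-44 and WT-77) was wild type. Both groups had the same injury, so no library shows an uninjured liver. The sources used here do not give the driver of the deletion, age or sex, and a deletion in hepatocytes leaves Irf8 in the other liver cells. By their reads all 6 libraries look male. The Y-linked genes Ddx3y (888 to 1995 reads a library), Eif2s3y, Uty and Kdm5d had reads in every one, and Xist had 6 in all. The labels do not say that the libraries of a group are separate animals, so p-values measure the spread between these libraries. In bulk tissue, fewer cells of a type and less RNA per cell cannot be told apart.

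Long noncoding RNAs are transcribed and often spliced and polyadenylated like mRNAs but carry no long conserved reading frame. Some act as scaffolds for nuclear bodies or bind proteins or microRNAs, some are precursors whose introns or exons hold small nucleolar RNAs (snoRNAs, guides for modifying ribosomal RNA) or microRNAs, and many overlap a protein-coding gene on the other strand, where transcription itself can matter. In liver they are known mostly as low-abundance, tissue- and stress-dependent transcripts.

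Several of the members carry a sequence that defines what they do, and these are shown before the levels. Snhg6 and Snhg12 (small nucleolar RNA host genes) and 9430037G07Rik hold box C/D snoRNAs, in which the capitals mark a match to NTGATGA (box C) and the CTGA (box D). Snhg12 also holds Snora16a, Snora44 and Snora61, snoRNAs of the other class (H/ACA), which are not shown. The sequences are from GENCODE M21 on mm10 (GRCm38): Snord87 lies in Snhg6 at chr1:9942463-9942549 on the minus strand, Snord99 in Snhg12 at chr4:132310691-132310764 on the plus strand, and Gm23017 in 9430037G07Rik at chr9:88598348-88598419 on the minus strand.
Snord87: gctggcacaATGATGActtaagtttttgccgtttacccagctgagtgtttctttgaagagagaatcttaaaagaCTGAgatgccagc
Snord99: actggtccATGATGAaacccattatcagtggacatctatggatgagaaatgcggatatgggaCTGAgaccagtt
Gm23017: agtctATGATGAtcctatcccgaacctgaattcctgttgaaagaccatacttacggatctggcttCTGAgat

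Mir17hg is the precursor of a microRNA cluster known for its role in proliferation, and 6720427I07Rik holds let-7d. The mature microRNAs from RefSeq (GRCm38.p6) are shown because their seeds (bases 2 to 8, in capitals), the part that pairs with target mRNAs, fall into a few families. miR-17-5p and miR-20a-5p share the seed AAAGUGC, miR-19a-3p and miR-19b-3p share GUGCAAA, and the rest have seeds of their own.
mmu-miR-17-5p: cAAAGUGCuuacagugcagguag
mmu-miR-20a-5p: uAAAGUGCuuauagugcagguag
mmu-miR-18a-5p: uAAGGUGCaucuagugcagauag
mmu-miR-19a-3p: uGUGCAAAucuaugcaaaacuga
mmu-miR-19b-3p: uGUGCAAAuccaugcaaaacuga
mmu-miR-92a-3p: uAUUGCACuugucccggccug
mmu-let-7d-5p: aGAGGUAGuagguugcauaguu

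1700020I14Rik, listed by RefSeq as Oip5os1 and known as Cyrano, is known for one long site that pairs with miR-7 and leads to the loss of that microRNA. The site, shown with miR-7a-5p because the pairing runs far past the seed, lies at chr2:119602132-119602161 on the plus strand. Capitals mark the seed of the microRNA and its match in the RNA. Beyond base 8 of miR-7a-5p, 14 of its 15 bases could pair with the site, with a bulge of 2 bases in the long noncoding RNA.
1700020I14Rik site: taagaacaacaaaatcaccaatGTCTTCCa
mmu-miR-7a-5p: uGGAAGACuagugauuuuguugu

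2900097C17Rik, listed by RefSeq as Norad, is known for binding the Pumilio proteins through repeated copies of their recognition motif, which was searched as TGTANATA on the transcribed strand. It held 11 matches in 4915 bases, or 2.24 per kb, and 5 tested genes had more matches in their longest transcript. At least 1 match was present in 29.6% of the 13124 longest transcripts searched and in 27 of the 83 members. The matches numbered 4, 6 and 10 from the 5′ end are shown with their flanks, at chr2:156391439-156391468, chr2:156391133-156391162 and chr2:156390208-156390237 on the minus strand. These were picked with the same capitals, share ggacaa in the flank after the capitals and otherwise differ in the flanks. Matches 1, 7 and 8 also read TGTATATA but lack ggacaa in that flank, while match 9, which reads TGTACATA, holds it. The remaining matches read TGTAAATA or TGTACATA and lack it.
2900097C17Rik site 4: actgactgctgTGTATATAgtggacaacag
2900097C17Rik site 6: tgtgtgtatacTGTATATAatggacaaata
2900097C17Rik site 10: cagtactactaTGTATATAggggacaaatt

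The libraries held 14758237 to 16805830 counted reads. The 83 RNAs took 119910 reads, 0.125% of all reads and 68.9% of those of the 3 biotypes, and 5 of them held 33.1% of the members' reads. Levels are given as CPM, counts scaled to the size of each library after correction by the TMM factors, which spanned 0.786 in WT-44 to 1.32 in IRF8-cKO-106. Mitochondrial transcripts took 7.19% of reads in WT-14, 20.2% in WT-44, 14.5% in WT-77 and 5.99 to 7.14% in the IRF8-cKO libraries. Irf8 itself, which the deletion targets, stood at 9.32, 9.50 and 10.3 CPM in WT and at 5.67, 6.72 and 4.17 CPM in IRF8-cKO, and the log2 fold change of -0.82 had an SE of 0.33 (adjusted p = 0.174). Its groups did not overlap, but the difference did not pass the threshold in bulk tissue. Hepatocyte markers were abundant in every library, with summed levels of 79346 to 125206 CPM in WT and 65038 to 80287 CPM in IRF8-cKO.

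Per kb of annotated length, the median level of the members was 3.55 CPM, with a range of 0.437 to 57.9 CPM. Over the 11972 protein-coding genes tested the median was 3.29 CPM. Those genes had only to pass the low-count filter, and 9787 of them reached the 300 reads required of the members. The 2 medians therefore come from sets chosen by unlike limits and do not rank the members against coding genes. The highest levels per kb were those of Epb41l4aos (57.9 CPM), a short spliced RNA that contains a snoRNA, AW112010 (49.5 CPM), an interferon- and endotoxin-inducible RNA of immune cells, and Gm27216 (37.0 CPM). They were followed by 1810058I24Rik (31.1 CPM), Snhg6 (25.8 CPM), Gm10076 (23.3 CPM), Gm8883 (22.1 CPM), Gm26917 (21.1 CPM), Gm30262 (21 CPM) and 2900097C17Rik (19.6 CPM). The nuclear RNAs Malat1 and Neat1, which are long, stood at 16.9 and 2.37 CPM per kb. Gm26917 is known to contain ribosomal RNA sequence, so its reads may be shared with rRNA. As a check of the biotypes, RefSeq lists 53 of the 83 as lncRNA, 5 as protein-coding (1810058I24Rik, Gm37494, Gm46430, Tmem250-ps and D930016D06Rik), 3 as pseudogenes and has no entry matched for 22. 1810058I24Rik is known to encode a small mitochondrial protein.

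**Figure D1:**
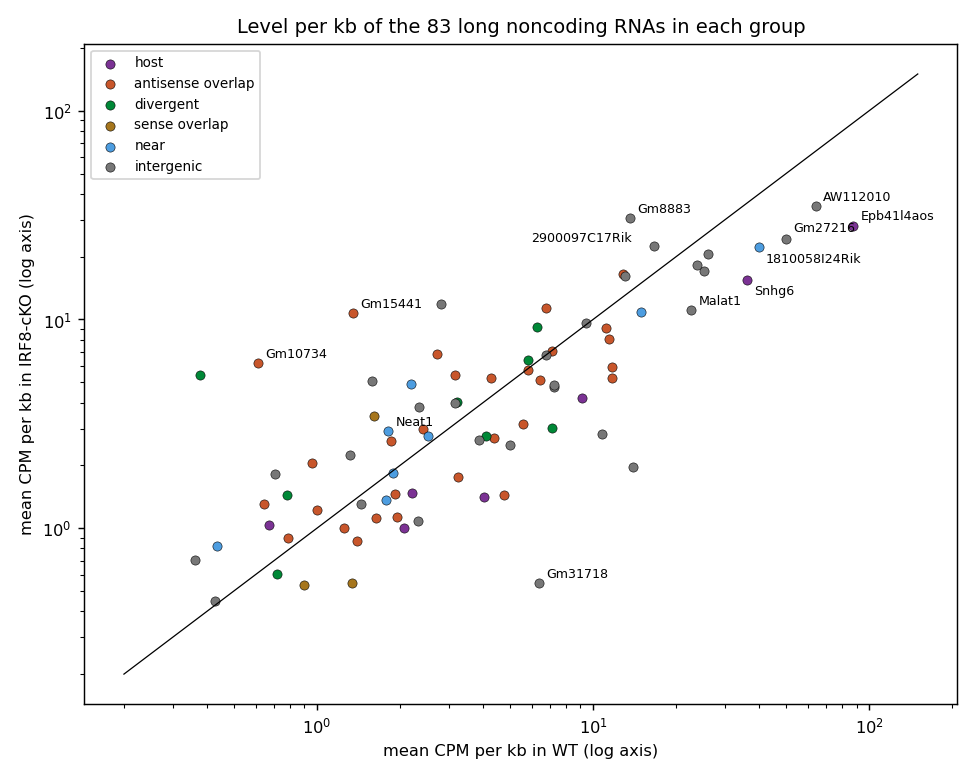
Mean CPM per kb of annotated length of each of the 83 long noncoding RNAs in WT (x axis, log scale) and in IRF8-cKO (y axis, log scale), coloured by genomic class, with the line of equal level. Epb41l4aos, AW112010 and Gm27216 are at the top right below the line, Gm10734 is far above it and Gm31718 far below it.

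Each member was given 1 class by position, with hosts taken first. Of the 83, 29 overlapped a protein-coding gene on the other strand, 8 started within 5 kb of a protein-coding gene pointing the other way (divergent), 7 contained a snoRNA, small Cajal body RNA or microRNA (hosts), 3 overlapped a gene on the same strand, 8 lay within 5 kb of a gene otherwise and 28 were intergenic. Snhg6, classed as a host, also overlaps Mcmdc2 on the other strand. The members were shorter than the protein-coding genes tested, with a median annotated length of 2463 against 4389 bases and a median of 3 against 10 exon blocks. In 15 members there was 1 exon block. The median GC content of the longest transcript was 47.4% in members and 49.6% in protein-coding genes.

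One member passed the threshold of edgeR's quasi-likelihood test, an adjusted p under 0.05 over all 13134 genes tested. Gm10734 rose in IRF8-cKO, and none fell. Over all genes, 0.449% were called higher and 0.937% lower, together 1.39%. Without adjustment, p was under 0.05 for 11 members in the higher and 14 in the lower direction, together 25 of 83 (over all genes, 12.1% higher and 12% lower, together 24.1%). The groups had separate CPM ranges in 10 members that were higher and 10 that were lower in IRF8-cKO, against 14.4% and 14.5% of all genes. These shares are near the background. DESeq2, run as an alternative, called 4 members higher and 7 lower, and 1423 of all 13134 genes. limma-voom called 1 and 0, and 111 of all genes. The median log2 fold change of the members was -0.25 (quartiles -0.80 and 0.60), beside 0.03 over all genes tested and 0.05 over protein-coding genes, and 47 of 83 values were below 0 (48.5% of all genes). With library totals in place of TMM factors the median was -0.01 for members and 0.25 for all genes, so the position of both relative to 0 depends on the scaling. The members' median was 0.06 without WT-44 and 0.09 without IRF8-cKO-106. An absolute log2 fold change over 1 was seen in 27 members, or 32.5%, and in 20.8% of all genes, and the median standard error was 0.47 in members and 0.38 over all genes.

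**Figure D2:**
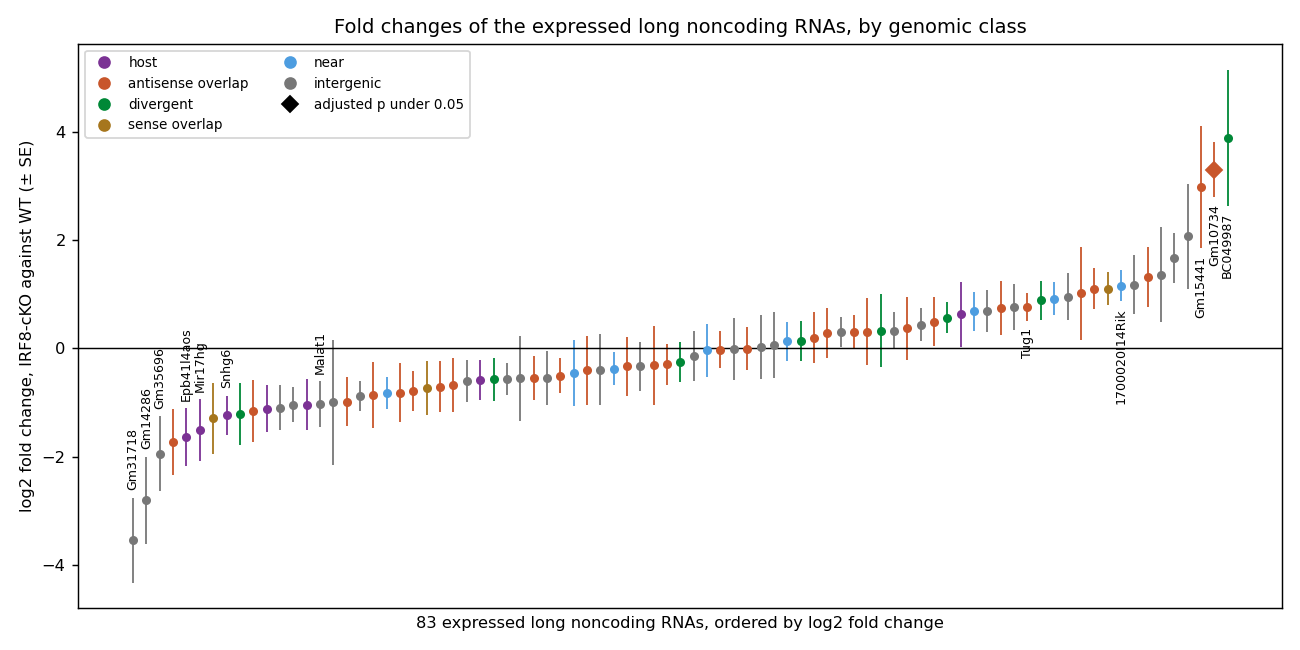
Log2 fold change of IRF8-cKO against WT (y axis, error bars SE) for the 83 long noncoding RNAs in order of value (x axis), coloured by genomic class, with a diamond for an adjusted p under 0.05. One diamond, Gm10734 at 3.30, stands near the right end, and the hosts, in purple, lie mostly to the left with values below 0.

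Gm10734, a spliced antisense RNA of 1269 bases at chr13:115089501-115090987 (plus strand), was measured at 1.35 CPM in WT-14, 0.518 in WT-44 and 0.465 in WT-77. In the IRF8-cKO libraries it reached 8.57, 5.92 and 9.04 CPM, in the order of libraries given in the opening, which all values keep. Every IRF8-cKO library was above every WT library. The means were 0.777 ± 0.495 and 7.84 ± 1.68 CPM (SD, n = 3 in each), and the log2 fold change was 3.30 (SE 0.51, adjusted p = 0.0312 by edgeR's quasi-likelihood test). Leaving out 1 library at a time gave 3.02 to 3.98. The adjusted p was 0.172 without WT-44, 0.170 without WT-77 and 0.0700 without IRF8-cKO-106.

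Gm10734 lies within the span of Itga1, an integrin subunit on the other strand, and its exons face those of Pelo, a ribosome rescue factor, and of the overlapping gene Gm49395. Of its 1269 exon bases, 586 (46.2%) are also exon on the other strand, all 333 of exon 1 and 253 of the 936 of exon 2. The first 300 bases of exon 1 (GENCODE M21, mm10, chr13:115089501-115089800, plus strand) are printed because they are wholly opposite a coding gene's exon. A read from them fits both genes unless its strand is used, and because the whole stretch is shared no letter is in capitals.
Gm10734 exon 1: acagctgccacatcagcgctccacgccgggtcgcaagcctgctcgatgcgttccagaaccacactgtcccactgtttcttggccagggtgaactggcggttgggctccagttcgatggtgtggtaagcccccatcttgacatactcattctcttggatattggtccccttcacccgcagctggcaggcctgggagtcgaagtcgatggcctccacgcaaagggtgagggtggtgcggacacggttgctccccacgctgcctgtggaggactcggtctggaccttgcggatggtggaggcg
No source used here gives the strand setting of the counting, so it is not known whether reads of the 2 strands were told apart. Gm49395 had 1.10, 1.12 and 0.731 CPM in WT and 10.5, 3.39 and 5.84 CPM in IRF8-cKO, and it rose too, by 2.73 on the log2 scale (SE 0.52, adjusted p = 0.0446). Pelo had 7.42, 6.04 and 5.25 CPM in WT and 5.74, 8.08 and 6.95 CPM in IRF8-cKO, and its value was 0.15 (SE 0.34, adjusted p = 0.812). The value of Itga1 was 0.60 (SE 0.32, adjusted p = 0.274). The groups overlapped for Pelo and were separate for Gm49395 and Gm10734.

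The other members with the lowest p in the higher direction did not pass the threshold. 1700020I14Rik, the RNA with the miR-7 site shown above, stood at 22.8, 16.3 and 15.4 CPM in WT and 42.8, 31.2 and 48.0 CPM in IRF8-cKO, a log2 difference of 1.16 (SE 0.28, adjusted p = 0.0672). The groups were separate, and its standard error was among the smaller of the set. Without IRF8-cKO-88 its adjusted p was 0.025 and without WT-77 it was 0.265, the ends of the range with 1 library left out.

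1300002E11Rik, which overlaps Map3k13 on the same strand, stood at 7.72, 5.53 and 7.11 CPM in WT and 12.6, 15.4 and 15.8 CPM in IRF8-cKO (1.10 on the log2 scale, SE 0.30, adjusted p = 0.0857). 5033406O09Rik, an intergenic RNA, stood at 3.56, 3.28 and 1.79 CPM in WT and 11.3, 4.63 and 11.6 CPM in IRF8-cKO (1.67, SE 0.46, adjusted p = 0.0878). In both, each IRF8-cKO library was above each WT library. Tug1, a broadly expressed RNA with roles in chromatin and growth control, stood at 29.7, 37.1 and 25.7 CPM in WT and at 49.2, 59.2 and 49.4 CPM in IRF8-cKO, a value of 0.77 (SE 0.26, adjusted p = 0.123). Brip1os stood at 6.44, 5.79 and 6.45 CPM in WT and at 18.5, 7.34 and 14.3 CPM in IRF8-cKO (1.10, SE 0.38, adjusted p = 0.128). The groups of these RNAs did not overlap either, and the WT libraries of Brip1os lay much closer together than its IRF8-cKO libraries.

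The remaining named RNAs of this direction were Gm37494 at 0.92 (adjusted p = 0.121), 5031425E22Rik at 0.89 (adjusted p = 0.171) and Gm46430 at 0.96 (adjusted p = 0.216), all with separate groups, and Gm44706 at 1.32 (adjusted p = 0.183), whose groups overlapped. For 2 members with large values, single libraries carried the mean. BC049987, divergent from the trehalase gene Treh, stood at 0.184, 1.12 and 0.332 CPM in WT and at 19.7, 3.33 and 0.510 CPM in IRF8-cKO, and its log2 fold change of 3.89 (SE 1.26, adjusted p = 0.123) spanned 1.85 to 4.89 with 1 library left out. Gm15441, an antisense RNA of Txnip known in mouse liver as a target of the fasting regulator PPARα, stood at 0.429, 0.777 and 5.58 CPM in WT and at 5.61, 43.6 and 4.82 CPM in IRF8-cKO, and its value of 2.97 (SE 1.13, adjusted p = 0.163) spanned 1.19 to 4.91. The groups of both overlapped, with IRF8-cKO-71 high for BC049987 and IRF8-cKO-88 high for Gm15441.

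In the lower direction the largest difference was that of Gm31718, an intergenic RNA at chr8:126812640-126908215. It stood at 3.86, 15.2 and 16.0 CPM in WT and at 0.185, 1.97 and 0.834 CPM in IRF8-cKO, a log2 difference of -3.54 (SE 0.79, adjusted p = 0.0591). The groups did not overlap, and the adjusted p was the lowest after that of Gm10734. Gm14286, a short intergenic RNA, stood at 2.33, 10.7 and 6.38 CPM in WT and at 0.123, 1.79 and 0.834 CPM in IRF8-cKO (-2.81, SE 0.81, adjusted p = 0.0922). WT-14 was the lowest WT library for both.

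IRF proteins bind repeats of GAAA, alone or beside an ETS partner such as PU.1, so the promoters of RefSeq (GRCm38.p6, 250 bases before to 50 after the start) were searched on both strands for the interferon response element (GAAA, any 2 bases, GAAA) and for the ETS-IRF composite element (GGAA, any 2 bases, GAAA). A promoter was matched for 46 of the 83 members. The interferon response element was present in 2 of them, Gm31718 and Rab10os (4.35%, beside 3.44% of all 32851 promoters), and the composite element in 1, Gm31718 (2.17%, beside 2.72%). The Gm31718 promoter, chr8:126853199-126853498 on the minus strand, is printed because it alone among the 46 held both, in capitals as their minus-strand matches, which do not overlap. The RefSeq start lies inside the longer GENCODE gene, 54967 bases from the GENCODE start, and a match describes these letters and no binding.
Gm31718 promoter: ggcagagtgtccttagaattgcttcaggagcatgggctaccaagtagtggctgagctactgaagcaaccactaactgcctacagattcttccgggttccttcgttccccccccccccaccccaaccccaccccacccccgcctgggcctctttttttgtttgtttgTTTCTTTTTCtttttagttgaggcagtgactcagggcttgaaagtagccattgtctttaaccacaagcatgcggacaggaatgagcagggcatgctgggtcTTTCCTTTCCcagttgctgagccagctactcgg

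AW112010 stood at 44.5, 62.5 and 41.1 CPM in WT and at 26.9, 30.6 and 23.1 CPM in IRF8-cKO, a value of -0.88 (SE 0.27, adjusted p = 0.102). Gm27216 stood at 24.4, 48.7 and 35.1 CPM in WT and at 21.4, 17.8 and 13.4 CPM in IRF8-cKO (-1.04, SE 0.32, adjusted p = 0.102). The groups of both were separate, by a small margin in Gm27216. 1810058I24Rik stood at 80.1, 145 and 107 CPM in WT and at 68.8, 64.6 and 53.2 CPM in IRF8-cKO (-0.83, SE 0.30, adjusted p = 0.135), also with separate groups.

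Gm35696 stood at 5.21, 10.02 and 16.3 CPM in WT and at 0.863, 5.80 and 1.57 CPM in IRF8-cKO (-1.94, SE 0.69, adjusted p = 0.138), and AU020206 had a value of -1.09 (SE 0.42, adjusted p = 0.160). Their groups overlapped. Among the markers of other cells, the 9 neutrophil genes tested had 5 that fell (median -2.37) and 8 with separate groups, all lower. Their summed level was 1210 to 3538 CPM in WT and 783 to 4657 CPM in IRF8-cKO, mostly from Lcn2, the one gene above 0 (0.19), and without Lcn2, left out after its values were seen, 183 to 225 CPM in WT and 23.4 to 53.1 CPM in IRF8-cKO. The 6 cholangiocyte genes were all below 0 with separate groups and none called (median -2.19; summed levels 456 to 937 CPM in WT and 129 to 250 CPM in IRF8-cKO). The 8 erythroid and platelet genes were all below 0, 7 with separate groups and 1 called (median -1.64; summed levels 232 to 333 CPM in WT and 105 to 157.5 CPM in IRF8-cKO). The 7 Kupffer cell genes were all above 0, 3 with separate groups and none called (median 0.96; summed levels 163 to 209 CPM in WT and 162 to 440 CPM in IRF8-cKO). Of the 8 monocyte and macrophage genes, 5 were below 0 and 3 above, and none was called (median -0.65). Groups were separate in 3 that were lower and 1 that was higher. Their summed levels were 118 to 125 CPM in WT and 86.8 to 114.5 CPM in IRF8-cKO. The 5 B cell genes, with only Ighm tested (-1.395, not called), summed to 6.31 to 15.5 CPM in WT and 2.775 to 5.92 CPM in IRF8-cKO. All of these genes had reads in both groups, and their part in the values of AW112010 and the other lower members was not tested.

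**Figure D3:**
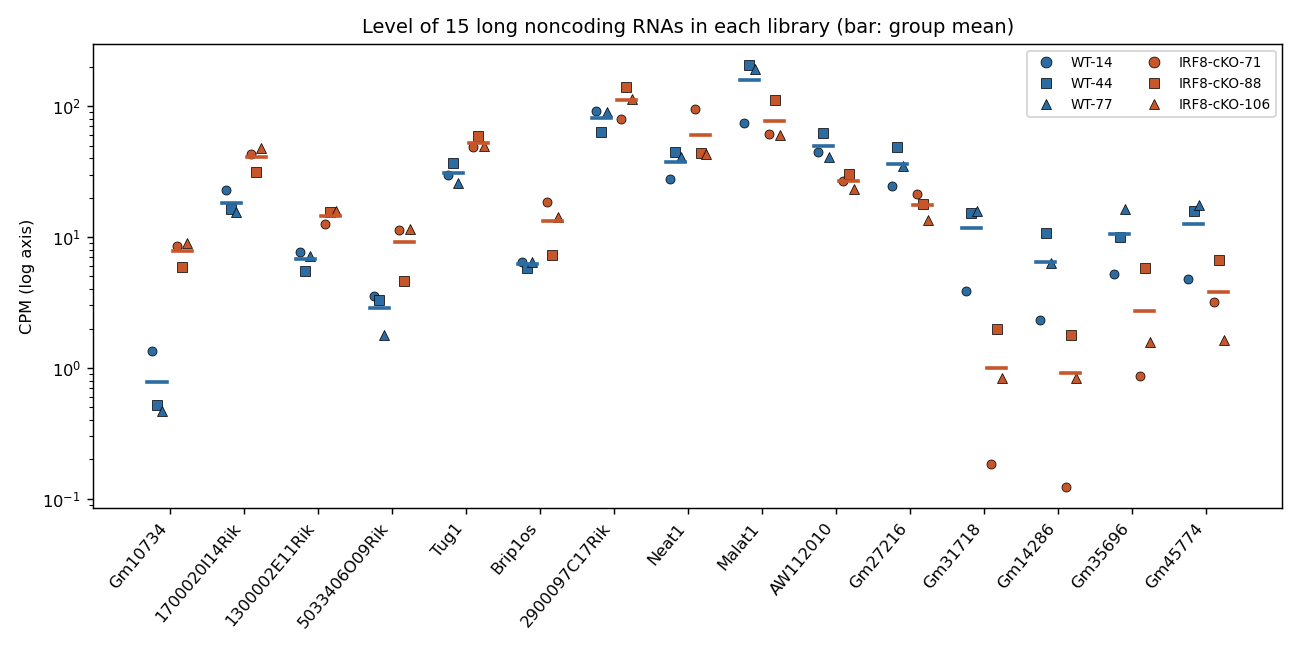
CPM (y axis, log scale) of 15 long noncoding RNAs in each library, with WT in blue, IRF8-cKO in orange, a marker shape for each library and a bar for the group mean. Gm10734 is below 1.5 CPM in WT and above 5.9 CPM in IRF8-cKO, and Gm31718 and Gm14286 spread widely within both groups.

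The architectural RNAs of the nucleus, Malat1 of the splicing speckles and Neat1 of the paraspeckles, which are neighbours on chromosome 19, had values of opposite sign. Malat1 stood at 74.9, 206 and 194 CPM in WT and at 61.8, 111 and 60 CPM in IRF8-cKO (-1.03, SE 0.42, adjusted p = 0.175). Neat1 stood at 27.6, 44.5 and 40.9 CPM in WT and at 95.1, 43.6 and 43.3 CPM in IRF8-cKO (0.69, SE 0.36, adjusted p = 0.271). Neither passed the threshold, and the groups overlapped in both, with WT-14 low for Malat1 and IRF8-cKO-71 high for Neat1. Of 20 protein components of speckles and paraspeckles, such as Sfpq and Nono, none was called and the median was -0.04.

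2900097C17Rik, the Pumilio-binding RNA, stood at 91.1, 63.4 and 90.7 CPM in WT and at 80.0, 139 and 113 CPM in IRF8-cKO (0.44, SE 0.30, adjusted p = 0.385). Gm26917 had a value of -0.57 (adjusted p = 0.269). Other well-known RNAs of the role lists had too few reads to be members, among them these: Kcnq1ot1 had 257 reads in all, Pvt1 181, Lncpint 161, Hnf4aos 123, Meg3 57, H19 9 and Xist 6. None of the role lists, which name nuclear, imprinted, X-linked, hepatocyte and stress-related RNAs, held a called gene.

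The hosts of small RNAs lay mostly below 0. Of the 7 hosts among the members, 6 had a log2 fold change below 0, with a median of -1.11, and 4 had separate groups, all lower, beside 14.5% of all genes. None was called. Snhg6 stood at 34.1, 48.9 and 41.2 CPM in WT and at 11.3, 27.9 and 13.7 CPM in IRF8-cKO (-1.23, SE 0.36, adjusted p = 0.0922). Snhg12 stood at 18.9, 24.9 and 21.7 CPM in WT and at 3.95, 14.9 and 11.3 CPM in IRF8-cKO (-1.11, SE 0.43, adjusted p = 0.160). Mir17hg stood at 9.32, 20.4 and 12.9 CPM in WT and at 1.48, 9.01 and 4.45 CPM in IRF8-cKO (-1.51, SE 0.58, adjusted p = 0.160). In these hosts IRF8-cKO-71 was the lowest library and IRF8-cKO-88 the highest of its group, so the groups came closest through IRF8-cKO-88.

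Epb41l4aos stood at 19.4, 51.4 and 42.4 CPM in WT and at 5.18, 21.5 and 9.59 CPM in IRF8-cKO (-1.64, SE 0.53, adjusted p = 0.121), with IRF8-cKO-88 above WT-14. Snhg20 had a value of -1.04 (adjusted p = 0.207), 6720427I07Rik, the let-7d host, -0.58 (adjusted p = 0.347) and 9430037G07Rik, with reads near the limit of the set, 0.63 (adjusted p = 0.542). The small RNAs were not measured by these libraries: Snord87 had 5 reads in all, the snoRNA of Epb41l4aos 23, and the 15 other small RNA entries inside members none. The levels are those of the host transcripts.

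A wider list of 30 host genes and related RNAs, taken from general knowledge, also holds hosts annotated as processed transcripts, which are not members. It includes 5 of the 7 member hosts and leaves out 6720427I07Rik and 9430037G07Rik, the one above 0. Among its genes tested, Snhg11 is annotated as protein-coding, and Mirt2 is not known to hold a small RNA. Of its 19 genes tested, 17 were below 0, with a median of -0.99 (17 also with library totals), and none was called, while 11 had an unadjusted p under 0.05, all lower (12% of all genes). The groups did not overlap in 8 that were lower and 1 that was higher (14.5% and 14.4% of all genes). The summed level of the list was 344, 518 and 415 CPM in WT and 146, 320.5 and 188 CPM in IRF8-cKO. Every IRF8-cKO library was below every WT library in this sum, IRF8-cKO-88 by the smallest margin. Snhg15 had a value of -2.08 (SE 0.48, adjusted p = 0.0616) and Snhg8 one of -1.22 (SE 0.29, adjusted p = 0.0627), while Gas5, a host known for growth arrest, had -0.73 (adjusted p = 0.179) and Snhg18 0.68. DESeq2, which called 1423 of all 13134 genes in either direction, called 4 of the 19 lower. Without IRF8-cKO-88, edgeR called 9 of 21 lower and 1205 of all 13652 genes tested then. The 9 proteins of the snoRNP particles, such as Fbl and Dkc1, were all below 0 under TMM scaling with a median of -0.28 and none called, but 5 of 9 with library totals.

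**Figure D4:**
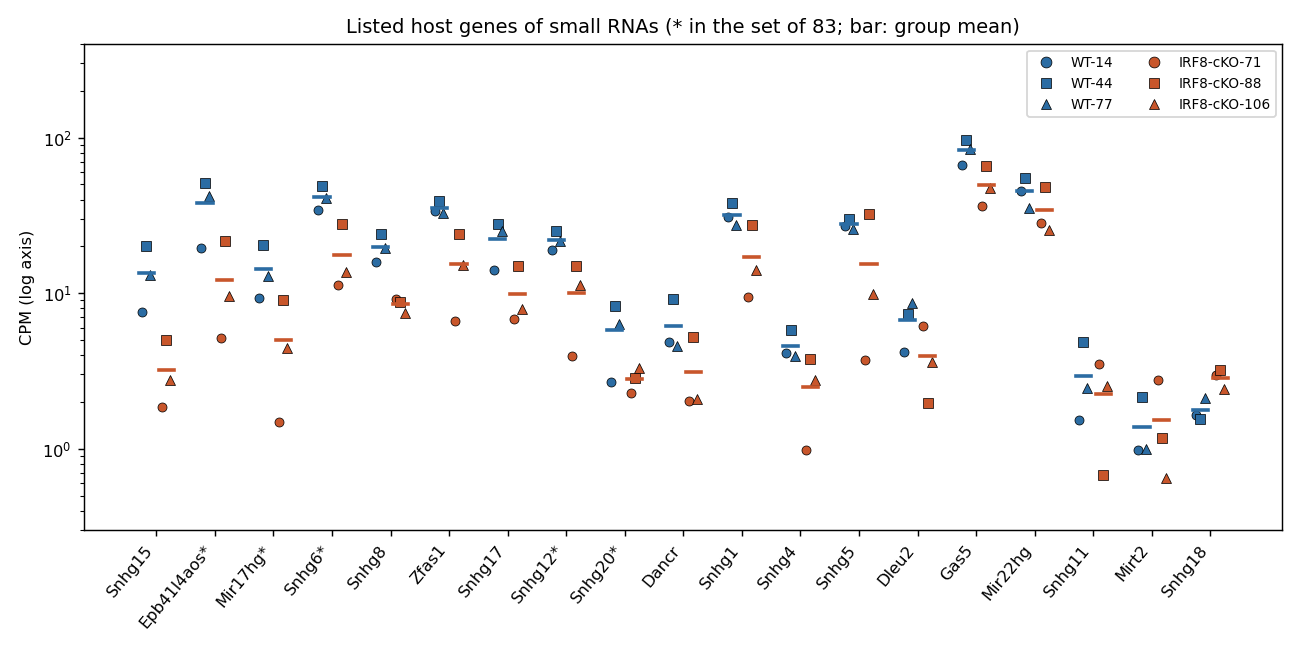
CPM (y axis, log scale) of the 19 genes tested from the list of small RNA hosts in each library, ordered by log2 fold change from left to right, with WT in blue, IRF8-cKO in orange and bars for the group means (an asterisk marks members of the 83). The IRF8-cKO mean is the lower one in 17 of the 19, and Mirt2 and Snhg18 on the right are the exceptions.

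The antisense and divergent RNAs were set beside their protein-coding partners. In the 33 pairs whose partner was tested, 16 had the same sign. In 22 of these pairs the long noncoding RNA shares exon bases with a gene on the other strand. For Gm10734 those bases face Pelo and Gm49395 and not Itga1, the partner used. Across the 33 pairs, which share the same libraries, Pearson's r was 0.24 and Spearman's rho 0.35, given as a description. The 29 antisense overlapping members had a median of -0.02 and the 8 divergent ones 0.23. The called partners were 2, Plcxd2, a phospholipase-like gene that rose with a value of 1.87 (SE 0.28, adjusted p = 0.0311), and Bace1, a membrane protease that rose with 1.64 (SE 0.33, adjusted p = 0.0482). The members beside them, Gm15638 at 1.02 (adjusted p = 0.488) and Gm16536 at 0.49 (adjusted p = 0.525), were not called.

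Gm45774, opposite the metallothionein gene Mt2, which is known to respond to metals and stress, stood at 4.78, 15.8 and 17.5 CPM in WT and at 3.21, 6.66 and 1.62 CPM in IRF8-cKO (-1.73, SE 0.60, adjusted p = 0.133). Mt2 stood at 231, 510 and 323 CPM in WT and at 72.7, 168 and 82.4 CPM in IRF8-cKO (-1.72, SE 0.42, adjusted p = 0.0674). Of the 2665 exon bases of Gm45774, 432 face an exon, so part of its reads may come from the far more abundant mRNA. Gm15441 and Txnip, which encodes an inhibitor of thioredoxin, had values of opposite sign, 2.97 and -1.06 (adjusted p = 0.200 for Txnip), and share 606 exon bases. Tug1 and Morc2a, whose values were 0.77 and -0.90 (adjusted p = 0.198 for Morc2a), share 483.

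Gm44706 and Pex11a, a protein of peroxisome division, had values of 1.32 and 1.14, with no exon bases shared. Brip1os and Ints2, an Integrator subunit, had 1.10 and 0.94, and Brip1os shares 1312 exon bases with Ints2 and Med13. Map2k3os and Map2k3, a stress kinase, had -1.22 and -1.30, with no exon bases shared. Gm20319 and Il1rap, an interleukin receptor subunit, had -0.99 and -0.71, and 552 of the 1125 exon bases of Gm20319 are shared. Gm37305 had 0.28 beside -2.22 for Ccnl1, a cyclin of splicing, with 442 exon bases shared. Whether reads in the shared bases were told apart by strand is not known. None of the long noncoding RNAs in these last 5 pairs passed the threshold.

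**Figure D5:**
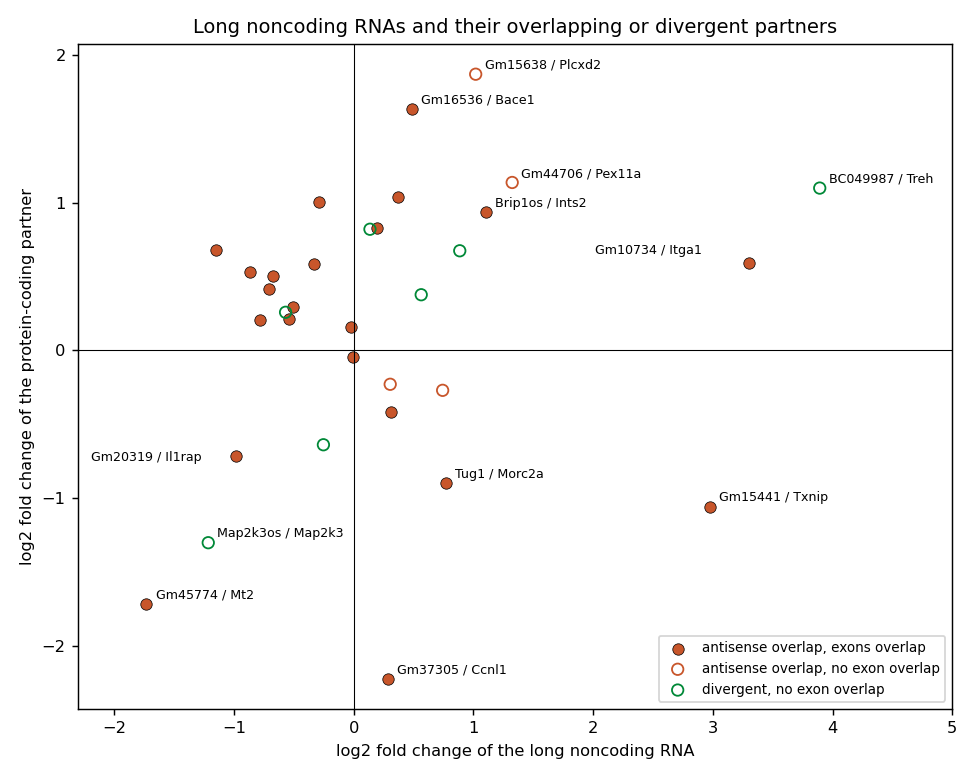
Log2 fold change of the long noncoding RNA (x axis) and of its protein-coding partner (y axis) for the 33 antisense overlapping and divergent pairs. Points are filled where exons of the RNA overlap exons on the other strand, which for Gm10734 are those of Pelo and Gm49395 and not of Itga1. Of the 33, 16 lie in the quadrants of equal sign, and Gm15441 with Txnip and Gm37305 with Ccnl1 lie far from the diagonal.

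The IRF8-cKO libraries differed more among themselves than the WT libraries. Over the 83 members, the correlation of log2(CPM + 1) between libraries (Pearson, across genes, which are not replicates) was 0.868 to 0.940 for WT pairs and 0.598 to 0.771 for IRF8-cKO pairs, and WT-14 with IRF8-cKO-106 gave 0.848. The median ratio of the highest to the lowest library was 1.79 in WT and 2.60 in IRF8-cKO, and it was over 4 in 9 members in WT and 27 in IRF8-cKO. Within its group, IRF8-cKO-71 was the highest library in 36 members, IRF8-cKO-88 in 33 and IRF8-cKO-106 in 14, while the lowest library was spread evenly (28, 27 and 28). WT-44 was the highest of all 6 libraries in 30 members. That library also had the highest mitochondrial share and the smallest TMM factor, and the part of these in the members' values was not tested.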

How the data were processed

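RNA of the ischemic lobe was sequenced in bulk, in 3 IRF8-cKO and 3 WT libraries. The authors deposited raw counts of reads per gene, whole numbers that were not normalized, with coordinates, biotype and a gene length in bases. Per the submitters' processing notes, HISAT2 2.0.5, featureCounts 1.5.0-p3 and the build mm10 were used. No source used here gives the strand setting or the treatment of multiply mapped reads. Groups came from the titles. Within a group, no pair of libraries matched within sampling noise (chi-square at least 44.2 times its degrees of freedom).

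Counts were fitted over the whole table with edgeR 4.0.16 in R 4.3.3 (TMM factors, filterByExpr with minimum count 10 and minimum total 15, robust quasi-likelihood F test, two-sided, Benjamini-Hochberg over 13134 genes, threshold 0.05). A positive log2 fold change is a higher level in IRF8-cKO, and its SE was taken from its size and the F statistic (size over root F). CPM divide each count by its library total times the TMM factor. The procedure was tested on simulated data. Classes came from the coordinates in the table, and exons and transcripts from GENCODE M21, in which all 83 members are present and 81 have the same span. Named genes were those of role lists, the 12 members of lowest p in each direction (called ones first), the 10 of highest CPM per kb, the 3 on each side of the read limit, and up to 8 antisense or divergent pairs; a few others were named after their values were seen (6720427I07Rik, Gm15638, Gm16536 and Gm37305 among them). A gene that the rule could name is not reported here. Members and lists were chosen with earlier results of these data known. Alternatives tried were scaling by library totals, upper quartiles or median of ratios, no low-count filter, 1 CPM in 3 libraries, DESeq2 1.42.0, limma-voom (limma 3.58.1), no robust shrinkage, removal of rRNA-derived and mitochondrial genes, each library left out, and other limits of the set.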

Additional observations from a re-analysis of the deposited data

How the results depend on the processing

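The count of members called higher was 1 (Gm10734). It was 4 with no low-count filter and 4 with DESeq2, both of which added 1700020I14Rik and 5033406O09Rik, 3 among the genes with at least 100 reads and 0 among those with at least 1000 reads, a limit that Gm10734 does not reach. Leaving out 1 library gave 0 to 5: 5 with IRF8-cKO-88 left out and 0 with WT-44, WT-77 or IRF8-cKO-106 left out. The count called lower was 0, with 14 members at an unadjusted p under 0.05 in edgeR. It was 10 with no low-count filter, 7 with DESeq2 and 0 with limma-voom, and 0 to 9 with 1 library left out, 9 of them without IRF8-cKO-88, including Gm31718, Gm14286, Snhg6, Epb41l4aos and Mir17hg. Over all genes the count of 182 of 13134 became 1723 of 24095 with no low-count filter and 1423 of 13134 with DESeq2. It was 20 with IRF8-cKO-106 left out, 1205 with IRF8-cKO-88, 0 with WT-77 and 1 with WT-44 left out. The cause of these changes was not tested. The other scalings, the 1 CPM filter, limma-voom, the fit without robust shrinkage and the removal of rRNA-derived and mitochondrial genes kept both counts. Among the values of single named members, 494 kept direction and side of the threshold, 35 passed it newly, 3 (all Gm10734) no longer passed it, and 6 uncalled values changed sign (Gm10076 and Gm30262 without WT-44, 9430037G07Rik without IRF8-cKO-88, and 2310001H17Rik under 3 settings). The members' median of -0.25 was 0.215 for the 28 RNAs with at least 1000 reads. No paired analysis was possible because no library number occurs in both groups. With 3 libraries a group, the median SE of a member's log2 fold change was 0.47, which limits the differences that could be detected.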

Other observations

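Long noncoding RNAs under the limit of 300 reads were also tested where they passed the filter. Of 243 such genes, 2 rose and none fell at an adjusted p under 0.05 (0.449% and 0.937% of all genes), and their median log2 fold change was -0.17. Pvt1, the neighbour of Myc, stood at 2.39, 4.75 and 2.33 CPM in WT and at 1.11, 0.925 and 0.880 CPM in IRF8-cKO, a value of -1.69 (SE 0.49, adjusted p = 0.0910), with separate groups. Jpx, an activator of Xist, had a value of 1.75 (SE 0.69, adjusted p = 0.167), also with separate groups. Of 9 microRNA processing genes tested, 8 were above 0 (median 0.40, beside 0.03 over all genes tested) and none was called. The lists of nuclear RNA decay, Xist-binding and Polycomb genes had medians of 0.06, -0.01 and -0.02, also with none called. H19 had 9 reads, all in IRF8-cKO-88, and Platr4 12 reads, all in IRF8-cKO-71.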
